A study of Homo sapiens with 4 samples.

Results

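The human genes named ZNF on chromosome 19 encode zinc finger proteins, most of them transcription repressors, and were described here as a physical and functional group. Members were the protein-coding genes of chromosome 19 in GENCODE 29 whose symbol starts with ZNF, and 249 of the 58735 genes in the deposited tables met this rule. Chromosome 19 held 1223 other protein-coding genes, and 266 protein-coding ZNF genes lay on other chromosomes. The RNA came from HT8 cells, a human line labelled as colon cancer, and was sequenced in 2 libraries labelled PPDPF knockdown (sample name HT8-cas1) and 2 labelled control (sample name HT8). The labels do not explain the name HT8-cas1, the way PPDPF was targeted or whether libraries of a group are separate cultures. Each p-value therefore rests on a spread between libraries that may be technical. Values were FPKM, the reads per kilobase of exon divided by a factor for each library, which allows levels to be compared between genes as well as between libraries. This factor differed from the library's reads in genes by -0.66% to 1.37%.

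A zinc finger of the C2H2 type is a short loop of protein held by a zinc ion, and a row of such fingers reads a stretch of DNA. In most chromosome 19 members the fingers follow a KRAB domain, which binds the corepressor TRIM28. TRIM28 in turn brings histone methyltransferases, heterochromatin proteins and histone deacetylases to the DNA, and many targets of these proteins are transposable elements. The genes arose by repeated tandem duplication and lie side by side in clusters, so their sequences are alike. In many cell types their own gene bodies carry repressive chromatin.

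The labelled target itself did not fall. PPDPF, on GRCh38 chromosome 20 at 63520724 to 63522206 (ENSG00000125534), had 281 and 283 FPKM in the libraries labelled knockdown, against 237 and 266 FPKM in controls. The log2 fold change of FPKM + 1 was 0.16 (SE 0.06, limma adjusted p = 0.0940; 0.25 and adjusted p = 0.0233 without control replicate 2), so each difference below is one between libraries with these labels. Of 8 colon epithelium markers, 8 had a mean of at least 1 FPKM (35.4 for VIL1 to 1024 for KRT8), and none of 14 markers of fibroblasts, leukocytes, endothelium, neurons and erythroid cells did. The summed level of the epithelial markers was 3159 and 3133 FPKM in the libraries labelled knockdown, against 2621 and 2802 FPKM in controls. KRT8, KRT18 and KRT19 made up most of this sum, and the list did not move as one. Of the 8, 6 were higher in both libraries labelled knockdown than in both controls, and CDH1 and CDX2 were lower in both. CDH1 had 107 and 111 FPKM in the libraries labelled knockdown, against 119 and 121 FPKM in controls. CDX2 had 41.8 and 39.2 FPKM in the libraries labelled knockdown, against 42.4 and 49.2 FPKM in controls. The part of these differences in the results was not tested. Among the defining markers of other cells, COL1A2, DCN, PTPRC, CD3E, SNAP25 and HBA1 had 0 reads in all 4 libraries, and the highest summed level of another cell type was 0.307 FPKM, for neurons. The depth in genes was 17330674 and 17069628 reads in the libraries labelled knockdown, against 17348315 and 19479906 in controls.

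Levels changed abruptly along the cluster that runs from ZNF101 to ZNF254, on both sides of a stretch of transcribed genes. ZNF85 was the last of 7 neighbouring members with 0 reads in all 4 libraries, and ZNF430, whose start lies next along the chromosome, was transcribed in all 4. ZNF100 was transcribed and its neighbour ZNF43 had 0 reads. The promoters of these 4 genes are shown because they stand at the borders between silent and transcribed genes. Silent here means 0 counted reads, and how reads that match several genes were counted is not stated. Each is the window of 250 bases before to 50 bases after the RefSeq start (GRCh38.p14), with CG dinucleotides, the sites of DNA methylation, in capitals. The windows are chr19:20923001-20923300 on the plus strand for ZNF85, chr19:21020407-21020706 on the plus strand for ZNF430, chr19:21767530-21767829 on the minus strand for ZNF100 and chr19:21836133-21836432 on the minus strand for ZNF43. The ZNF43 window lies inside the GENCODE 29 gene, whose outermost start on this strand is at 21852125. It may therefore not be the only promoter of ZNF43.
ZNF85: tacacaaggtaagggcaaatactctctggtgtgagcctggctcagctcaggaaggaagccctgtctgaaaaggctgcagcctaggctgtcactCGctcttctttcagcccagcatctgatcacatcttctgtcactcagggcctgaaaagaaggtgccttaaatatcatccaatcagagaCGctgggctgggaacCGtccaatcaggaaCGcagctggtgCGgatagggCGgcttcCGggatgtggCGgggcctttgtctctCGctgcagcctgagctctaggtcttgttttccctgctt
ZNF430: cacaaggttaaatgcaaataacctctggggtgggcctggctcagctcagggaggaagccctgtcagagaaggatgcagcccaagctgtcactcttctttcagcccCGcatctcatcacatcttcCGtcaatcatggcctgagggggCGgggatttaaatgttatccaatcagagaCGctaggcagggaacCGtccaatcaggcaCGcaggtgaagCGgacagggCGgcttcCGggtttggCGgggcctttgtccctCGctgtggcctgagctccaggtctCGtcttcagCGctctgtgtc
ZNF100: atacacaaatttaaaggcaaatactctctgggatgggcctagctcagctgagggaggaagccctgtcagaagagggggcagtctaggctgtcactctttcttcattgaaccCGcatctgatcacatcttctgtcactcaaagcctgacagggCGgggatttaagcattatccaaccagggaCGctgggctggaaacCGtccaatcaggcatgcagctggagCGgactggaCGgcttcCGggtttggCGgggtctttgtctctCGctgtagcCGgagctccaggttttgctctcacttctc
ZNF43: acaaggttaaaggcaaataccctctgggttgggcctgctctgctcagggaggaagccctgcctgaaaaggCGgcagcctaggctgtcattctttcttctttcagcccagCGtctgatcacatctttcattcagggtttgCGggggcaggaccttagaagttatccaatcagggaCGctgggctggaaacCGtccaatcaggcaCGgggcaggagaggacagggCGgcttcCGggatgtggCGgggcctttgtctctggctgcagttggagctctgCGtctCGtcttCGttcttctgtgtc
In pairwise alignments the 4 windows were 77.5% to 81.8% identical, and the 2 windows across the first border, of ZNF85 and ZNF430, were 81.4% identical. ZNF85 had 9 CG dinucleotides and ZNF43 had 12, both silent, while ZNF430 had 13 and ZNF100 had 10, both transcribed. The letters CCAAT, searched on both strands, were found 2 times each in ZNF85, ZNF430 and ZNF43 and 1 time in ZNF100. All 29 promoters available for the cluster held CCAAT, against 53.9% of the 217 member promoters and 34.6% of the 35116 promoters of the same length in the table. A match of letters is a description of the window and does not show that a factor binds there.

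Over the whole set, about as many members were transcribed as among protein-coding genes in general. A member was called on in a group where both libraries had at least 1 FPKM, off where both had under 0.1 FPKM, and between otherwise. By this measure 126 members (50.6%) were on, 41 between and 82 (32.9%) off in the libraries labelled knockdown, against 131 (52.6%) on, 42 between and 76 (30.5%) off in controls. Over all 19951 protein-coding genes, 53.2% were on and 33.3% off in the libraries labelled knockdown, against 53.4% on and 32.9% off in controls. The ZNF genes of other chromosomes were more often on, with 72.2% on and 16.2% off in the libraries labelled knockdown, against 70.7% on and 16.2% off in controls. These shares are descriptions over genes, which share ancestry and sequence, and were not tested.

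Both groups had 125 members on, 73 off and 32 between, and 19 members differed in state. No member was off in one group and on in the other, and none had 3 or fewer reads in both libraries of one group and 10 or more in both of the other. In all 4 libraries 41 members had 0 reads, which allows a level of up to 0.0163 to 0.141 FPKM depending on the gene's length and the library (3 reads per library, counting error only). Of these 41, 5 shared at least 50% of their exon length with another gene, namely ZNF177, ZNF625 and the read-through genes ZNF559-ZNF177, ZNF625-ZNF20 and ZNF816-ZNF321P, so their counts are uncertain. The other 36 shared less. Recent copies are also alike in sequence, and the sources used here do not say how reads that match several genes were counted.

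**Figure D1:**
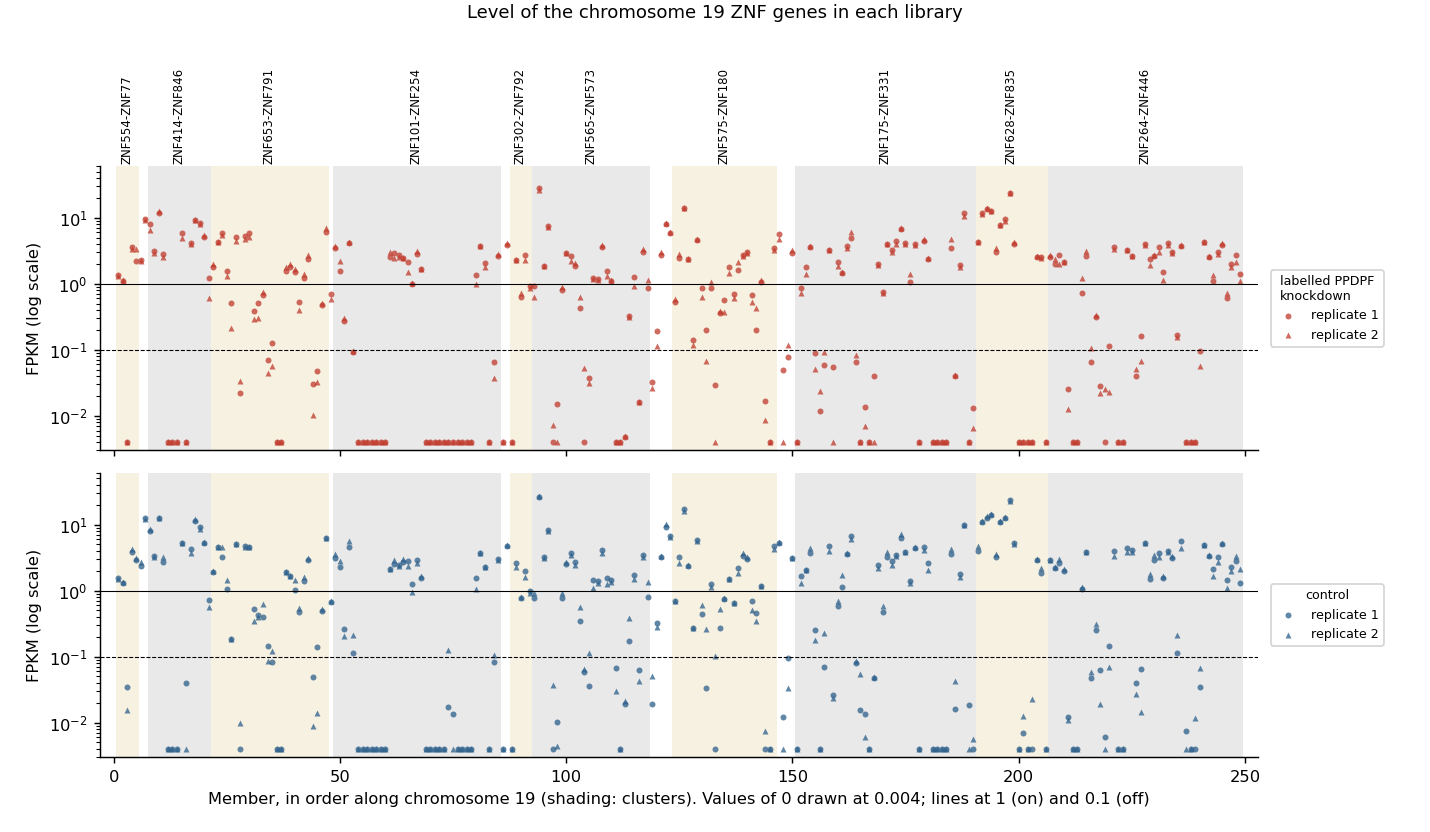
Level of each of the 249 members in FPKM (log scale) in order along chromosome 19, in the libraries labelled PPDPF knockdown (upper panel) and control (lower panel); each point is 1 library, shading marks the 10 clusters, and values of 0 are drawn at 0.004. Silent members stand in unbroken rows at the bottom of both panels, the longest in the ZNF101 to ZNF254 cluster, and most transcribed members lie between 1 and 10 FPKM.

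Levels were modest even among transcribed members: 11 of the 249 had a mean of at least 10 FPKM and 2 of at least 20. The highest was ZNF146, a protein made almost wholly of zinc fingers with no KRAB domain, which had 27.9 and 26.1 FPKM in the libraries labelled knockdown, against 25.7 and 27.5 FPKM in controls. ZNF787 followed with 23.5 and 24.0 FPKM in the libraries labelled knockdown, against 23.5 and 22.9 FPKM in controls. Neither passed the test between groups. The next were ZNF428 (mean over the 4 libraries 15.2 FPKM), ZNF865 (13.6 FPKM) and ZNF524 (13.3 FPKM), and all 5 lacked a KRAB A box in their longest coding sequence. The median over the 249 members was 1.10 and 1.14 FPKM in the libraries labelled knockdown, against 1.29 and 1.29 FPKM in controls.

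Members fell into 10 clusters when neighbours with starts at most 500 kb apart were joined and at least 5 members were asked for, and 235 of the 249 lay in one. Along the clusters, on and off genes were interspersed, and stretches of like state also occurred. Of the 225 neighbouring pairs within clusters, 75 were on next to on in controls, 40 were off next to off, and 44 put an on gene beside an off gene. In runs of 4 or more with the same state in both groups, 7 runs were off and 10 were on.

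The ZNF101 to ZNF254 cluster (GRCh38 chromosome 19, starts at 19.67 Mb and ends at 24.13 Mb) held 37 members and had the highest share off of the 10 clusters in both groups. In the libraries labelled knockdown 13 members were on and 21 off, against 14 on and 18 off in controls, and 17 of the 37 had 0 reads in all libraries. Its first 2 members, ZNF101 and ZNF14, were on, and ZNF253 was its highest at a mean of 4.68 FPKM. ZNF93, which in human cells represses LINE-1 elements, had 9 and 9 reads in the libraries labelled knockdown, against 11 and 23 reads in controls. Then came the 7 silent genes from ZNF682 to ZNF85 over 0.95 Mb (19997058 to 20950697), with ZNF90, ZNF486, ZNF737, ZNF626 and ZNF66 between them.

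Directly after this silent stretch stood 5 members that were on in both groups, ZNF430, ZNF714, ZNF431, ZNF708 and ZNF738, over 0.36 Mb at 1.53 to 3.02 FPKM per library. ZNF493 was at the threshold, and ZNF429 and ZNF100 were on. A second row of 0 reads followed over 0.51 Mb, from ZNF43 through ZNF208, ZNF257 and ZNF676 to ZNF729. ZNF98 had 0 and 0 reads in the libraries labelled knockdown, against 1 and 8 reads in controls, and the next 5 members, ZNF492 to ZNF730, held at most 1 read in a library. ZNF91, which represses SVA elements in human cells, lay beyond them and was on, with 3.80 and 3.68 FPKM in the libraries labelled knockdown, against 3.64 and 3.68 FPKM in controls. ZNF681 had 0 reads, and ZNF254, the last member, was on.

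**Figure D2:**
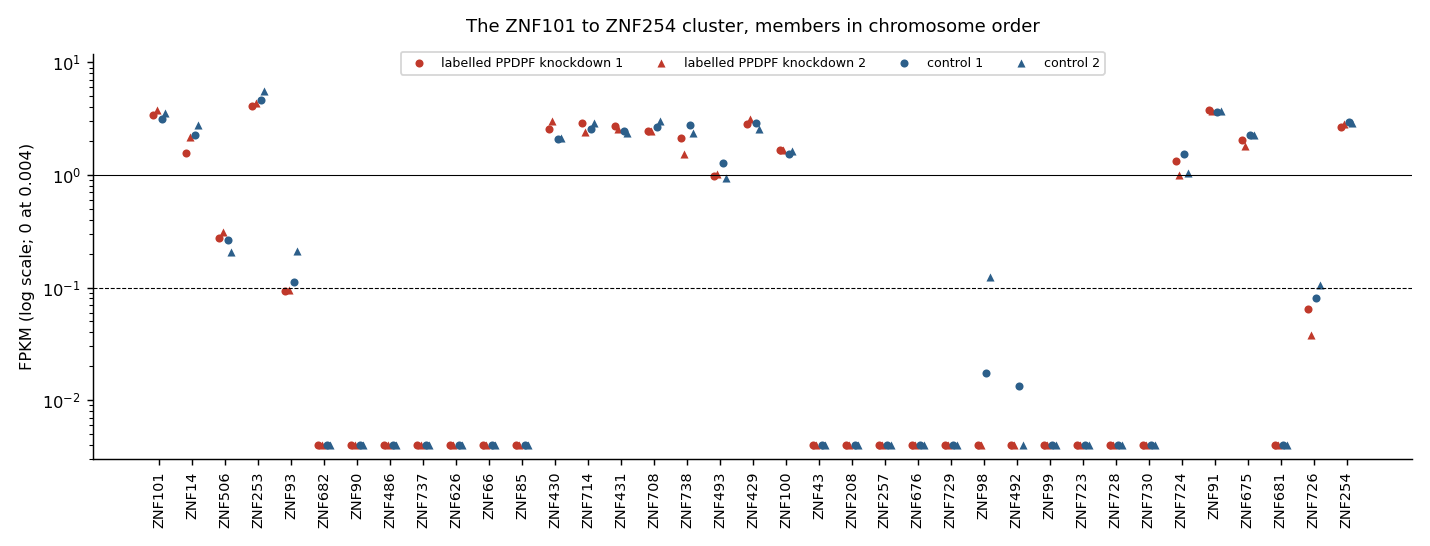
FPKM (log scale) of the 37 members of the ZNF101 to ZNF254 cluster in chromosome order; red points are the libraries labelled PPDPF knockdown, blue points are controls, circles are replicate 1 and triangles replicate 2, and values of 0 are drawn at 0.004. The 7 genes from ZNF682 to ZNF85 and the 5 from ZNF43 to ZNF729 sit at 0 in every library, and the 5 from ZNF430 to ZNF738 between them lie above 1 FPKM.

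The ZNF175 to ZNF331 cluster (51.57 to 53.58 Mb) alternated more. Of its 40 members, 20 were on and 18 off in the libraries labelled knockdown, against 20 on and 16 off in controls. A run of 5 silent genes from ZNF610 to ZNF578 gave way, past ZNF808 (on) and ZNF701 (between), to 7 transcribed genes from ZNF83 to ZNF888. Farther on, ZNF816 and ZNF160 were on, and the next 4 genes, ZNF415, ZNF347, ZNF665 and ZNF677, had 0 reads. ZNF677 is a gene often methylated in tumours. ZNF761 was the highest member with 11.8 and 10.6 FPKM in the libraries labelled knockdown, against 9.84 and 9.80 FPKM in controls. ZNF331, an imprinted gene, closed the cluster with 2 and 1 reads in the libraries labelled knockdown, against 0 and 1 reads in controls.

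The largest cluster, ZNF264 to ZNF446 near the chromosome end (57.19 to 58.48 Mb), held 43 members, of which 24 were on and 12 off in the libraries labelled knockdown, against 26 on and 14 off in controls. Its longest transcribed run joined 7 genes from ZNF776 to ZNF417. The silent run from ZNF606 to ZNF274 ended in ZNF274, a protein that recruits the methyltransferase SETDB1 to the 3′ ends of ZNF genes. ZNF274 had 14 and 8 reads (0.0973 and 0.0566 FPKM) in the libraries labelled knockdown, against 5 and 11 reads (0.0341 and 0.0672 FPKM) in controls. ZNF154, a gene methylated in many tumours, was off with 3 to 5 reads per library, and ZNF304 was off with 1 or 2.

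The ZNF628 to ZNF835 cluster (55.48 to 56.67 Mb) divided in the middle by protein type as well as by level. Its first 9 members, from ZNF628 to ZNF444, all lacked a KRAB A box and were all on, at 3.04 to 24.0 FPKM per library. The next 4, ZNF582, ZNF583, ZNF667 and ZNF471, all had a KRAB A box and were off with at most 3 reads in a library. ZNF582 and ZNF471 are known as genes methylated in tumours. ZNF470 and ZNF71 were on beyond them, and ZNF835 had 0 reads.

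The other clusters were mostly transcribed or mixed. ZNF414 to ZNF846 (8.51 to 9.79 Mb) had 9 of 14 members on in both groups, led by ZNF317 at a mean of 12.4 FPKM. ZNF653 to ZNF791 (11.48 to 12.64 Mb) had 13 of 26 on in both groups, and ZNF791 was highest at 6.37 FPKM. ZNF565 to ZNF573 (36.18 to 37.82 Mb) had 12 of 26 on in the libraries labelled knockdown, against 13 in controls, and held ZNF146. It also held ZNF568, whose mouse orthologue represses a placental transcript of Igf2, with 6 and 5 reads in the libraries labelled knockdown, against 6 and 21 reads in controls, and ZNF382, with 0 to 3 reads per library. ZNF575 to ZNF180 (43.53 to 44.5 Mb) had 10 of 23 on in the libraries labelled knockdown, against 11 in controls, and many of the rest between, not off. Here ZNF224, a KRAB protein that binds TRIM28, had 1.81 and 1.44 FPKM in the libraries labelled knockdown, against 1.47 and 1.52 FPKM in controls. In the small cluster ZNF554 to ZNF77 (2.82 to 2.94 Mb) 4 of 5 members were on in both groups, with ZNF57 highest at a mean of 3.75 FPKM. In ZNF302 to ZNF792 (34.68 to 34.96 Mb) 2 of 5 were on, with ZNF181 highest at 2.36 FPKM. Among the 14 members outside clusters, ZNF536, a gene of the nervous system, had 0 reads. ZNF473, which takes part in processing histone messenger RNA, had 2.97 and 3.25 FPKM in the libraries labelled knockdown, against 3.16 and 3.12 FPKM in controls.

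Translation of each member's longest GENCODE coding sequence gave a KRAB A box in 213 members, none in 35, and no coding sequence in 1. The number of C2H2 fingers, counted by spacing of the cysteines and histidines, ran up to 36 with a median of 12. ZNF208 with 36 and ZNF729 with 34 had the most and were both silent, while ZNF91 with 31 was on. The median number of fingers was 13 in members on in both groups and 12 in those off. Members without KRAB lay higher: their median level was 4.30 FPKM, against 1.04 FPKM in members with KRAB. Of the members without KRAB 71.4% were on and 20% off in each group. Of those with KRAB 47.4% were on and 34.7% off in the libraries labelled knockdown, against 49.8% on and 31.9% off in controls.

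Promoters of on and off members had similar numbers of CG dinucleotides. RefSeq promoters matched 217 of the 249 members, and their median CG number was 22 for the 112 on in both groups, 18 for those between and 20 for the 63 off. In the ZNF101 to ZNF254 cluster the promoters were poorer in CG but on and off again lay close, with a median of 10 (9 to 18) over 11 on promoters and of 9.5 (8 to 16) over 14 off promoters. CCAAT was found in 52.7% of on and 54.0% of off promoters. DNA methylation itself was not measured.

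**Figure D3:**
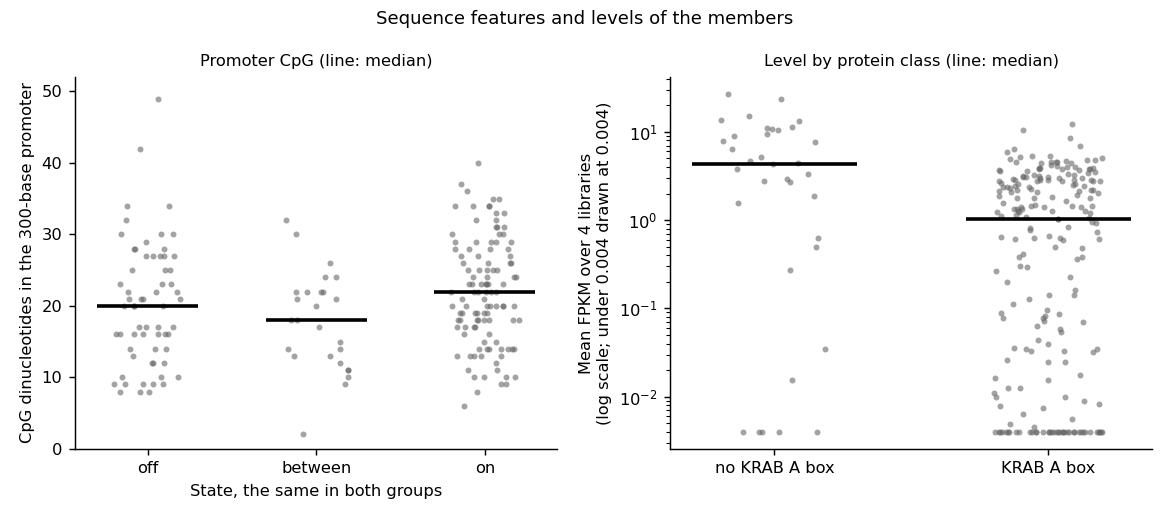
Left, CG dinucleotides in the 300-base promoter of members that were off, between or on in both groups; right, mean FPKM over the 4 libraries (log scale) of members without and with a KRAB A box; each point is 1 member and lines are medians. The CG medians are 20, 18 and 22 with wide overlap, and the median level is 4.30 FPKM without KRAB and 1.04 FPKM with KRAB.

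Between the groups, the chromosome 19 members were shifted slightly down in the libraries labelled knockdown. Of the 249, 133 had a mean of at least 1 FPKM and were tested in a limma fit over 12777 genes on log2(FPKM + 1). In the libraries labelled knockdown 1 member was higher and 16 were lower at a Benjamini-Hochberg adjusted limma p under 0.05, and 116 were not called. That is 0.752% higher and 12.03% lower, against 16.8% higher and 13.0% lower over all genes tested. The share of members called lower was thus near the background, and the share called higher was below it. The median log2 fold change of the 133 was -0.08, against 0.001 over all tested genes, and 69.9% of members had a value below 0, against 49.8% of all genes.

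Counted without a test, 62 members (46.6%) were lower in both libraries labelled knockdown than in both controls, and 20 (15.0%) were higher in both. Over all tested genes these shares were 33.8% lower and 35.9% higher. Tested ZNF genes of other chromosomes had 39.9% lower and 30.6% higher, and other tested protein-coding genes of chromosome 19 had 37.2% and 33.7%. The 19 tested genes not named ZNF inside the clusters had 52.6% lower and 21.1% higher. More lower than higher by this count was thus not particular to the members. Of 193 tested ZNF genes on other chromosomes, 23 were higher (11.9%) and 20 lower (10.4%) with a median log2 fold change of -0.03. Of 626 other tested protein-coding genes on chromosome 19, 102 were higher (16.3%) and 95 lower (15.2%) with a median of -0.02. The difference between the members and these sets was not tested. In bulk RNA, fewer cells of one kind and less RNA per cell cannot be told apart.

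Summed over all 249 members, the level was 547 and 541 FPKM in the libraries labelled knockdown, against 582 and 588 FPKM in controls. Both libraries labelled knockdown were below both controls, and the ratio of the means was 0.930. Members with KRAB summed to 341 and 338 FPKM in the libraries labelled knockdown, against 359 and 360 FPKM in controls. Members without KRAB summed to 207 and 203 FPKM in the libraries labelled knockdown, against 223 and 228 FPKM in controls. Of the 108 tested members with KRAB, 1 was higher (0.926%) and 9 lower (8.33%), and of the 25 without KRAB, 0 were higher and 7 lower (28%). Beside the 16.8% higher and 13.0% lower of all tested genes, the share lower was below the background with KRAB and above it without KRAB. This was over few genes. The classes also differ in level, with a median of 1.04 FPKM over all members with KRAB and 4.30 FPKM without. Fold changes of FPKM + 1 understate those of low genes, and the difference in shares was not tested. Counted without a test, both libraries labelled knockdown were below both controls in 46.3% of tested members with KRAB and 48% without. They were above both in 15.7% and 12%, against 33.8% below and 35.9% above over all tested genes. The median log2 fold changes were -0.08 with KRAB and -0.12 without, so by these measures both classes lay close.

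**Figure D4:**
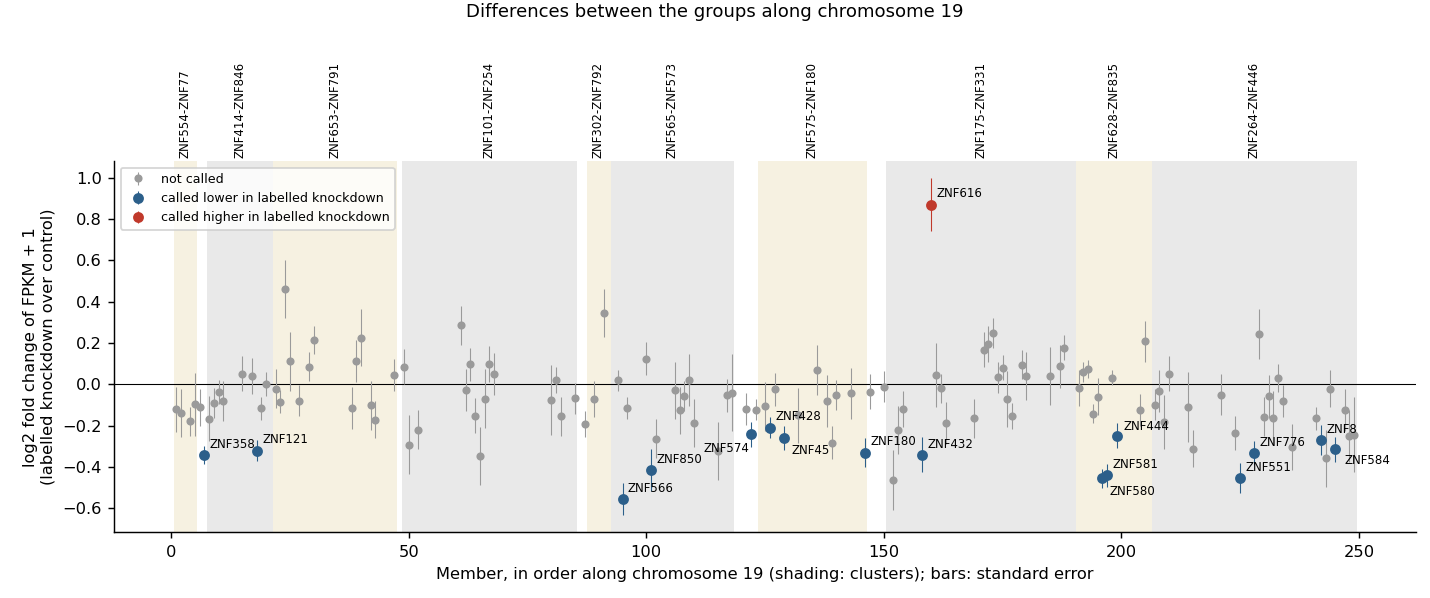
Log2 fold change of FPKM + 1 (libraries labelled PPDPF knockdown over control) of the 133 tested members in order along chromosome 19; bars are standard errors from limma and shading marks clusters. ZNF616 stands alone above 0.8, the 16 members called lower lie between -0.55 and -0.21 in several clusters, and most grey points lie below 0.

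ZNF616, a KRAB protein of the ZNF175 to ZNF331 cluster with 21 fingers (ENSG00000204611, 52113091 to 52139922), was the single member that rose in this test. It had 2.16 and 1.84 FPKM in the libraries labelled knockdown, against 0.593 and 0.687 FPKM in controls, from 182 and 153 reads against 51 and 66. The ratio of the means was 3.13 (log2 fold change of FPKM + 1 0.87, SE 0.13, limma adjusted p = 0.00901). Both libraries labelled knockdown lay above both controls, and without replicate 1 of the libraries labelled knockdown the adjusted p was 0.0602. The genes on either side of it were near 0 or overlapped between the groups. ZNF841 had 0.0541 and 0 FPKM in the libraries labelled knockdown, against 0.0265 and 0.0237 FPKM in controls. ZNF836 had 1.46 and 1.51 FPKM in the libraries labelled knockdown, against 1.13 and 1.73 FPKM in controls, and the groups overlapped.

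Among the 16 members that fell, ZNF566 had the largest change. It is a KRAB protein of the ZNF565 to ZNF573 cluster (ENSG00000186017, 36445119 to 36489902) and had 1.84 and 1.83 FPKM in the libraries labelled knockdown, against 3.22 and 3.11 FPKM in controls. The ratio of the means was 0.580 (log2 fold change -0.55, SE 0.08, limma adjusted p = 0.00843), and without control replicate 1 the adjusted p was 0.0521. ZNF850, a KRAB protein with 29 fingers in the same cluster, had 2.68 and 2.19 FPKM in the libraries labelled knockdown, against 3.69 and 3.44 FPKM in controls (log2 fold change -0.41, limma adjusted p = 0.0348). In both genes the groups did not overlap.

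The overlapping genes ZNF580 and ZNF581 of the ZNF628 to ZNF835 cluster both fell. Both encode short proteins with few fingers and no KRAB. ZNF580 had 7.86 and 7.76 FPKM in the libraries labelled knockdown, against 10.9 and 11.3 FPKM in controls (log2 fold change -0.45, SE 0.05, limma adjusted p = 0.00342). ZNF581 had 9.48 and 8.80 FPKM in the libraries labelled knockdown, against 12.4 and 13.1 FPKM in controls (log2 fold change -0.44, SE 0.06, limma adjusted p = 0.00594). They lie on the same strand and share 15.1% and 23.4% of their exon length, so they may share reads and are not independent. ZNF444 of this cluster also fell, with 4.05 and 4.33 FPKM in the libraries labelled knockdown, against 5.22 and 5.10 FPKM in controls, while its neighbour ZNF787 did not pass the test.

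In the ZNF264 to ZNF446 cluster 4 of 25 tested members fell and none rose, and the median log2 fold change was -0.16, with 22 of 25 (88%) below 0. The share that fell, 16%, was near the 13.0% of all tested genes called lower, and 49.8% of all tested genes had a value below 0. ZNF551 had 2.61 and 2.62 FPKM in the libraries labelled knockdown, against 4.13 and 3.77 FPKM in controls (log2 fold change -0.45, limma adjusted p = 0.0125). ZNF776 had 4.004 and 3.87 FPKM in the libraries labelled knockdown, against 5.23 and 5.20 FPKM in controls (limma adjusted p = 0.0143). ZNF584, the highest member of this cluster, had 3.86 and 4.15 FPKM in the libraries labelled knockdown, against 5.15 and 5.29 FPKM in controls (limma adjusted p = 0.0210). ZNF8 had 2.55 and 2.67 FPKM in the libraries labelled knockdown, against 3.31 and 3.41 FPKM in controls (limma adjusted p = 0.0463). All 4 have a KRAB A box, and none of them overlapped between groups.

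The ZNF575 to ZNF180 cluster had 3 that fell among 11 tested (27.3%) and none that rose, beside 13.0% lower and 16.8% higher over all tested genes. With 11 genes, this share is a description. ZNF180 had 3.49 and 3.24 FPKM in the libraries labelled knockdown, against 4.66 and 4.32 FPKM in controls. ZNF45 had 4.54 and 4.78 FPKM in the libraries labelled knockdown, against 5.92 and 5.64 FPKM in controls. ZNF428, of which 27.6% of the exon length overlaps another gene, had 13.9 and 14.2 FPKM in the libraries labelled knockdown, against 17.0 and 15.7 FPKM in controls. These were changes of -0.33, -0.26 and -0.21 on the log2 scale with limma adjusted p from 0.0265 to 0.0347.

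The remaining 4 that fell lay elsewhere on the chromosome. ZNF121 of the ZNF414 to ZNF846 cluster had 9.29 and 9.15 FPKM in the libraries labelled knockdown, against 11.4 and 12.1 FPKM in controls (limma adjusted p = 0.0106). ZNF432, a KRAB protein near ZNF616, had 3.21 and 3.28 FPKM in the libraries labelled knockdown, against 4.74 and 4.04 FPKM in controls (limma adjusted p = 0.0395). ZNF358 and ZNF574 lie outside the clusters and lack KRAB. ZNF358, with 34.4% of its exon length overlapping another gene, had 9.55 and 9.41 FPKM in the libraries labelled knockdown, against 12.4 and 12.2 FPKM in controls (log2 fold change -0.34, SE 0.04, limma adjusted p = 0.00551). ZNF574 had 7.997 and 8.27 FPKM in the libraries labelled knockdown, against 9.32 and 10.3 FPKM in controls (limma adjusted p = 0.0395).

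Support for these calls differed when 1 library was left out. The groups overlapped in no called member, so such a fit could not reverse a direction. ZNF358, ZNF580 and ZNF581 were called in all 4 such fits, and 7 members, ZNF574, ZNF45, ZNF180, ZNF444, ZNF776, ZNF8 and ZNF584, were called in none, although the direction stayed the same. ZNF616 and ZNF566 were called in 3 of these fits, ZNF121 in 2, and ZNF551, ZNF850, ZNF432 and ZNF428 in 1. The highest adjusted p in such a limma fit was 0.166, for ZNF8. The mostly silent ZNF101 to ZNF254 cluster had no call among 15 tested members and a median log2 fold change of -0.07. Over all tested genes 16.8% were called higher and 13.0% lower, and with 15 genes the lack of a call is a description. Of the 15, 40% were lower in both libraries labelled knockdown than in both controls and 20% were higher in both. Over all tested genes these shares were 33.8% and 35.9%. By that count 23.1% of the 13 tested members of the ZNF653 to ZNF791 cluster were lower and 30.8% higher. This cluster had no call and a median log2 fold change of 0.04. It held ZNF823, which had 5.87 and 5.40 FPKM in the libraries labelled knockdown, against 3.19 and 4.53 FPKM in controls, did not overlap between groups and was not called (log2 fold change 0.46, limma adjusted p = 0.0654).

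**Figure D5:**
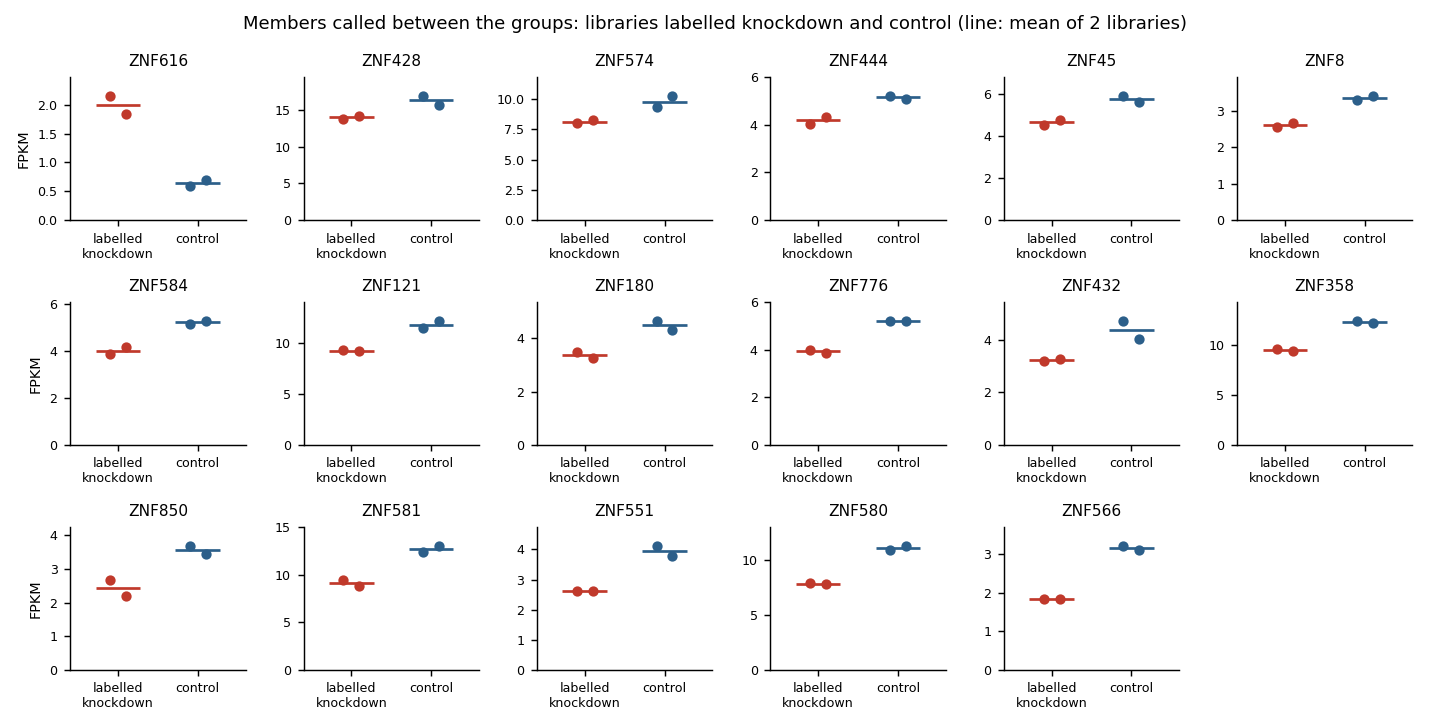
FPKM of the 17 called members in each library, labelled PPDPF knockdown (red) left of control (blue), with the mean of 2 libraries as a line and each axis starting at 0. ZNF616 is the single member higher in the libraries labelled knockdown; in the other 16 both libraries labelled knockdown lie below both controls.

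Each state difference between the groups was a step between neighbouring states. The 6 members between in the libraries labelled knockdown and on in controls were ZNF724, ZNF571, ZNF230, ZNF577, ZNF17 and ZNF132. Of these, ZNF577 had 0.872 and 0.715 FPKM in the libraries labelled knockdown, against 1.67 and 1.29 FPKM in controls. ZNF132 had 0.608 and 0.719 FPKM in the libraries labelled knockdown, against 1.43 and 1.10 FPKM in controls. Groups did not overlap in either. ZNF577 was not called (limma adjusted p = 0.0693), and ZNF132 lay below the filter on low values. The opposite step, on in the libraries labelled knockdown and between in controls, was taken by ZNF616 alone.

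Near the lower threshold, 9 members were off in the libraries labelled knockdown and between in controls, and 3 the other way round, ZNF114, ZNF772 and ZNF671. The 9 were ZNF844, ZNF564, ZNF93, ZNF98, ZNF726, ZNF568, ZNF222, ZNF350 and ZNF614. Except in ZNF93 and ZNF350, a single control library reached 0.1 FPKM. ZNF222, for example, had 1 and 0 reads in the libraries labelled knockdown, against 0 and 4 reads in controls. The 3 opposite steps also rested on a single library each. The share of such steps over all genes is not given here, so these counts do not show a direction. ZNF350, also known as ZBRK1 and a partner of BRCA1, had 7 and 4 reads in the libraries labelled knockdown, against 20 and 16 reads in controls. These members lay below the filter on low values and did not enter the test.

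Genes for corepressors and heterochromatin, among them TRIM28, through which KRAB zinc finger proteins act, were nearly all on in both groups. Of 33 corepressor and heterochromatin genes listed, 32 were tested, ZNF274 being too low; 3 were higher, 7 lower and 22 not called, with a median log2 fold change of -0.11. The share called lower was 21.9% and the share called higher 9.38%, beside the 13.0% and 16.8% of all genes given above. The share lower was thus above the background and the share higher below it, over few genes, and this was not tested. TRIM28, the corepressor that KRAB domains bind, had 142 and 140 FPKM in the libraries labelled knockdown, against 169 and 168 FPKM in controls (log2 fold change -0.25, limma adjusted p = 0.00407). SETDB1, the methyltransferase that TRIM28 recruits, had 4.78 and 5.32 FPKM in the libraries labelled knockdown, against 4.97 and 4.97 FPKM in controls, and did not pass the test (log2 fold change 0.02, limma adjusted p = 0.866).

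UHRF1 and DNMT1, which copy DNA methylation after replication, both fell. UHRF1 had 18.03 and 18.07 FPKM in the libraries labelled knockdown, against 27.3 and 26.3 FPKM in controls (log2 fold change -0.55, limma adjusted p = 0.00166). DNMT1 had 24.4 and 24.3 FPKM in the libraries labelled knockdown, against 30.4 and 30.3 FPKM in controls (log2 fold change -0.30, limma adjusted p = 0.003996). The others that fell were MTA2, HDAC2, ATF7IP and EHMT2.

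MPHOSPH8, a subunit of the HUSH silencing complex, rose, with 18.7 and 19.3 FPKM in the libraries labelled knockdown, against 14.8 and 14.3 FPKM in controls (log2 fold change 0.36, limma adjusted p = 0.00469). CHD3, a helicase of the NuRD complex, had 11.6 and 12.1 FPKM in the libraries labelled knockdown, against 9.15 and 9.38 FPKM in controls (log2 fold change 0.32, limma adjusted p = 0.00773). HDAC1 was the third that rose. Called genes of the list thus lay in both directions. Counted without a test, 23 of the 32 tested (71.9%) were lower in both libraries labelled knockdown than in both controls. In 7 (21.9%) both were higher, against 33.8% lower and 35.9% higher over all tested genes. This difference was not tested.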

How the data were processed

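The authors deposited 1 table of FPKM per library for 58735 genes. Per the submitters' processing notes, HISAT2 2.0.5 and the build hg18 were used; the sources used here name no counting tool, strand setting or rule for multiply matching reads. Reads of overlapping genes or of near-identical copies may therefore be split or lost. All 58735 IDs matched GENCODE 29, whose GRCh38 coordinates are printed.

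FPKM times exon length gave whole reads for 100% of values (tolerance 0.01 read). The deposited scale already gave the 4 libraries equal median-ratio factors. Replicates of a group differed beyond sampling noise (chi-square per gene 2.38 in the libraries labelled knockdown and 2.51 in controls).

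Genes with a mean of at least 1 FPKM (12777) were fitted as log2(FPKM + 1) with limma-trend (limma 3.58.1, R 4.3.3), group as the only term and 2 residual degrees of freedom, with two-sided p-values adjusted by the Benjamini-Hochberg method over all genes and called under 0.05. The fit was also run on simulated data with the same added spread for every gene. Its outcome is not reported here, and it does not give the error rate of the calls above. Fold changes on this scale understate those of low genes.

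Fingers and KRAB A boxes (pyhmmer 0.12.3, E-value under 0.001) came from translated GENCODE coding sequences, not from RefSeq proteins as first planned. Promoters are RefSeq's. Tables and figures used Python 3.11.15, pandas 2.3.3, numpy 2.4.6 and matplotlib 3.10.9.

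Members and lists were chosen with earlier results of these data known. Named were PPDPF, up to 12 called members in each direction with the largest log2 fold change, the 5 highest, the first, last and highest of each cluster, members of known role and up to 6 corepressor genes with the smallest p. The other called members, ZNF823, members of runs, the 4 genes whose promoters are printed, members that differed in state, neighbours of ZNF616 and the remaining called corepressor genes were named after their values were seen. Alternatives were other filters, pseudocounts, scalings and thresholds, limma-voom on recovered reads, the replicate number as a block, and each library left out.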

Additional observations from a re-analysis of the deposited data

How the results depend on the processing

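The count of members called lower, 16, was 4 at an adjusted p under 0.01, 5 with no filter, 9 with a filter at 0.2 FPKM, 7 at 5 FPKM and 25 with limma-voom on recovered reads, and 4 to 8 with 1 library left out. The count called higher, 1, was 0 at 5 FPKM, 2 after quantile normalization, 7 with limma-voom and 0 to 2 with 1 library left out. limma-voom called all 17 of the members called above, and it called 21.8% of all genes higher and 18.6% lower. The members tested numbered 208 with no filter, 160 at 0.2 FPKM and 25 at 5 FPKM. For the other settings the share called over all genes is not given here. The counts, for members or corepressor genes, therefore do not show a change particular to the set. Corepressor genes called lower, 7, numbered 3 at the stricter threshold, 3 with no filter, 15 with limma-voom and 3 with any 1 library left out. PPDPF, with a log2 fold change of 0.16, was called at 5 FPKM (0.16, limma adjusted p = 0.0459) and with limma-voom (0.16, adjusted p = 0.00424). Its log2 fold change ran over 0.0814 to 0.25 with 1 library left out, the highest on omission of control replicate 2 (limma adjusted p = 0.0233).

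With the replicate number as a block, 1 member was higher and 11 lower, and 4 corepressor genes were lower. Same-numbered libraries did not deviate together (r = -0.002 over 12777 genes). This cannot show whether they were prepared together, which the labels do not say. Scaling to total reads in genes shifted the median of all genes to -0.019 and gave 1 higher and 19 lower. No called member changed direction under any alternative tried. The groups overlapped in no called member, so leaving 1 library out could not reverse a direction and adds no support. Under the other thresholds, exon overlaps and single libraries, 123 to 146 members were on and 65 to 86 off in the libraries labelled knockdown, against 128 to 144 on and 58 to 83 off in controls. Joining distances of 250 kb and 1 Mb gave 12 and 9 clusters, and the ratio of summed levels was 0.920 to 0.936. With 2 libraries a group few calls survive the loss of 1 library, members under a mean of 1 FPKM were tested only at the lower filters, and a fit with 1 library left out assumes that a lone library varies like the other group.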

Other observations

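The clusters also held 106 protein-coding genes that are not named ZNF, of which 19 were tested, with 2 higher (10.5%), 2 lower (10.5%) and a median log2 fold change of -0.08. Both shares were below those of all tested genes, 16.8% higher and 13.0% lower, so the counts are no result about these genes. The 4 called are given as values and were chosen after their values were seen. PLAUR, the urokinase receptor, had 10.99 and 11.2 FPKM in the libraries labelled knockdown, against 7.02 and 7.19 FPKM in controls (log2 fold change 0.58, limma adjusted p = 0.00192). KCNN4, a calcium-activated potassium channel, had 7.24 and 8.44 FPKM in the libraries labelled knockdown, against 4.07 and 4.52 FPKM in controls (log2 fold change 0.74, limma adjusted p = 0.00518). CADM4, an adhesion molecule, had 11.7 and 12 FPKM in the libraries labelled knockdown, against 15.1 and 15.0 FPKM in controls (log2 fold change -0.32, limma adjusted p = 0.00559). NAT14 had 9.48 and 8.86 FPKM in the libraries labelled knockdown, against 12.2 and 11.2 FPKM in controls (log2 fold change -0.32, limma adjusted p = 0.0176).

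Among these genes, 12 carry other zinc finger names such as ZFP, ZSCAN and ZIK. In the libraries labelled knockdown 1 of them was on and 7 off, against 2 on and 6 off in controls, and neither of the 2 tested was called. ZFP14 was one of the 2, with 0.749 and 1.00 FPKM in the libraries labelled knockdown, against 1.44 and 1.37 FPKM in controls.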
